A study of Mus musculus with 12 samples.

Results

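The SMAD family was examined in the livers and lungs of newborn Man1a2 WT and null mice. Its 8 genes, Smad1, Smad2, Smad3, Smad4, Smad5, Smad6, Smad7 and Smad9, were picked by symbol from the 24421 genes listed in the count data. All 8 had enough reads to be tested in both tissues. The family was chosen with earlier results of these data known. The paper lists Smad1, Smad3, Smad4 and Smad9 among genes that differed in null liver. Man1a2 encodes an alpha-mannosidase of the Golgi that trims the sugar chains of glycoproteins. Parents were Man1a2+/- mice that carried the Man1a2tm1.1Ahe allele, in which exon 2 is deleted in every cell of the body, and the offspring compared were Man1a2+/+ (WT) and Man1a2-/- (null) pups. Liver and lung were taken 30 to 60 minutes after birth, and each of the 4 groups (WT liver, null liver, WT lung, null lung) held 3 libraries, 12 in all. The pups were otherwise untreated and null pups of this line die of respiratory failure.

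SMADs carry the signals of the TGF-beta and BMP growth factors from receptors at the cell surface to genes in the nucleus. An activated receptor phosphorylates a receptor-regulated SMAD, which joins the common SMAD, Smad4, and enters the nucleus. Smad1, Smad5 and Smad9 serve BMP receptors (BMP-type), Smad2 and Smad3 serve TGF-beta and activin receptors (TGF-beta-type), and the inhibitory Smad6 and Smad7, themselves switched on by the pathway, block further signaling. In the liver, BMP signaling through these proteins sets the expression of the iron hormone hepcidin and TGF-beta signaling drives matrix production by stellate cells; in the lung, both guide branching and alveolar development. Messenger RNA levels, which were measured here, do not report the phosphorylation that activates these proteins.

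The start regions of the 3 BMP-type genes and of Smad6 are shown because the 3 BMP-type genes differed from one another in the null liver and because Smad6 stood farthest apart between the tissues. Each window runs from 250 bases before to 50 bases after the annotated start, and was taken from RefSeq for GRCm38.p6, whose table covered 5 of the 8 members. Capitals mark a match to a sequence that SMAD proteins are known to bind, either the GC-rich box GGCGCC or the palindrome GTCTAGAC, each of which reads the same on both strands and does not overlap the other.
Smad9 (chr3:54755332-54755631, plus strand): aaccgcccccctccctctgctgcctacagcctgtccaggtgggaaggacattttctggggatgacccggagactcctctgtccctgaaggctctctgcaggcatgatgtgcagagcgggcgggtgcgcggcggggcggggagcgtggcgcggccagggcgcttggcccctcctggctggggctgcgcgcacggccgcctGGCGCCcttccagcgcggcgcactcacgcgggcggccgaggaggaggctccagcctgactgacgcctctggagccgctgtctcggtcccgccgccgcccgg
Smad5 (chr13:56702760-56703059, plus strand): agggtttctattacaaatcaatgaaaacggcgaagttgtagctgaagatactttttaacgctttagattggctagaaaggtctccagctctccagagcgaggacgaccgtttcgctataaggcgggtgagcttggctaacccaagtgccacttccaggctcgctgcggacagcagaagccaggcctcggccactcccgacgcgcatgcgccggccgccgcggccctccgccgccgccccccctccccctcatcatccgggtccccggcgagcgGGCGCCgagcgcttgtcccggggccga
Smad1 (chr8:79399379-79399678, minus strand): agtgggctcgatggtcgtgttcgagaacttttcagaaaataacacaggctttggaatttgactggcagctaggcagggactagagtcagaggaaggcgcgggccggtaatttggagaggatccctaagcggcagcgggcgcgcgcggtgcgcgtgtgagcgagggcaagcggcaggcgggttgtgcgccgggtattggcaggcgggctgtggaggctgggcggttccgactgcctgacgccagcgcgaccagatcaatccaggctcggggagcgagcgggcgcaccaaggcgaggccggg
Smad6 (chr9:64022010-64022309, minus strand): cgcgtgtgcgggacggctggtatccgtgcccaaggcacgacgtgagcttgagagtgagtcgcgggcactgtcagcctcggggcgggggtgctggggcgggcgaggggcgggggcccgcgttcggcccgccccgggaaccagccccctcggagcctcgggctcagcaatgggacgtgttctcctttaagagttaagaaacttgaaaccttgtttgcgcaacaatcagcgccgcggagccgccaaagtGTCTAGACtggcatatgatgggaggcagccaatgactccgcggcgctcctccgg
GGCGCC stood once in the Smad9 window, at base 200, and once in the Smad5 window, at base 274, and it was present in 11.9% of the 32851 start regions in the table. A second Smad5 window that overlaps the one shown holds the same copy. GTCTAGAC stood once in the Smad6 window, at base 247 across the start, and was present in 0.213% of all start regions. The Smad1 and Smad3 windows held neither of these, nor the short half-site CAGAC read on either strand, which 49.6% of all start regions hold and which another, separate Smad5 window contains at base 230. All 5 matched genes had GC-rich windows, from 63.0% GC in Smad5 to 73.7% in Smad9, against a median of 52.7% over the table. These matches are letters in a window and were not measured as binding sites.

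Libraries held 26759463 to 42914295 counted reads, so that 3 reads correspond to 0.0699 to 0.112 CPM, the count of a gene scaled to the size of its library. Man1a2 itself was at 67.5, 40.7 and 52.5 CPM in WT liver 1 to 3 and at 40.4, 36.8 and 38.7 CPM in null liver 1 to 3 (log2 fold change -0.47, SE 0.17, adjusted p = 0.0809, edgeR quasi-likelihood test). In the lung it was at 137, 99.5 and 141 CPM in WT and at 56.7, 64.3 and 66.3 CPM in null (log2 fold change -1.01, SE 0.18, adjusted p = 0.0614). It was lower in null than in WT without overlap in both tissues, but reads of the retained exons are part of these counts. The library labelled null lung 1 went against its tissue label in most, but not all, lung markers. Its summed level of 8 lung epithelial markers was 333 CPM against 19529 to 27078 CPM in the other 5 lungs, and its summed level of 8 striated muscle markers was 22822 CPM against 173 to 478 CPM. Sftpc, the surfactant gene that defines alveolar type II cells, was at 26.6 CPM there and at 11908 to 17387 CPM in the other lungs, while Nppa, a heart hormone gene, was at 5970 CPM. Foxj1, of ciliated cells, was at 38.8 CPM, within the 29.0 to 53.5 CPM of the other lungs, and the club cell gene Scgb1a1 was at 189 CPM, below the 1503 to 2177 CPM of the other lungs and above the 0.0377 to 5.86 CPM of the livers. Null liver 1 held 7686 CPM of the muscle markers against 4.47 to 5.48 CPM in the other livers, beside 194791 CPM of 8 hepatocyte markers, within the range of 154104 to 250403 CPM of the other livers. SMAD fold changes and pathway list counts in the lung are therefore given with and without null lung 1. SMAD and pathway list counts in the liver are also given without null liver 1. WT liver 2 held 73.5 CPM of the 8 lung epithelial markers, against 5.24 to 15.3 CPM in the other livers.

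**Figure D1:**
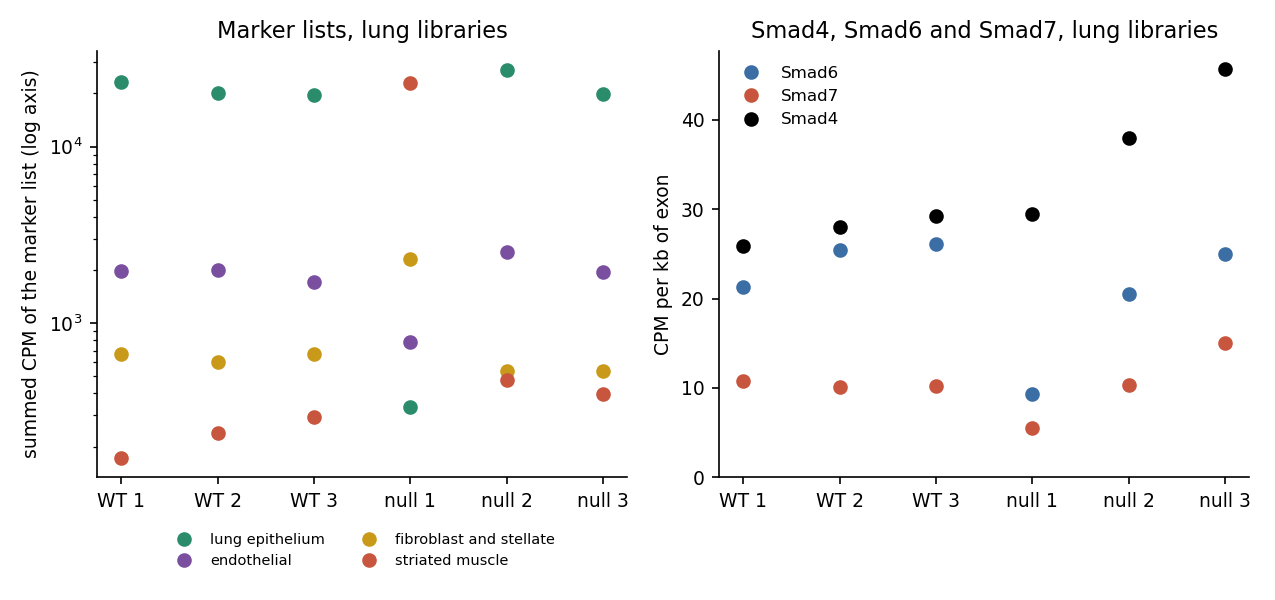
Left, summed CPM (scaled over all 12 libraries, log axis) of 4 marker lists in the 6 lung libraries; right, CPM per kilobase of exon of Smad4, Smad6 and Smad7 in the same libraries. Null 1 has 333 CPM of lung epithelial and 22822 CPM of striated muscle markers, and the lowest Smad6 and Smad7 of the 6.

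In the liver, 4 of the 8 SMAD genes were called, all of them higher in null mice: Smad1, Smad9, Smad3 and Smad4. To be called, a gene had to differ by 1.2-fold or more with an adjusted p under 0.05. By this rule 26.9% of the 14343 genes tested in the liver were called, 13.5% higher and 13.4% lower. The called members came from the BMP-type, TGF-beta-type and common classes, and neither inhibitory SMAD was among them. The median log2 fold change of the 8 members was 0.32 against 0.02 over all genes tested. Null and WT libraries did not overlap for 6 of 8 members, against 46.6% of all genes. Without null liver 1, 3 of the 8 were called, beside 23.8% of 14501 genes, with Smad4 lost at an adjusted p of 0.0736, and 6 of 8 did not overlap, beside 55.1% of all genes. The count was 2 without WT liver 1 or null liver 3, and 1 without WT liver 2 or WT liver 3, as only Smad1 stayed called in all 6 fits with 1 liver library left out. Over all genes, these 6 fits called 1641 to 3451, against 3856 with all livers.

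**Figure D2:**
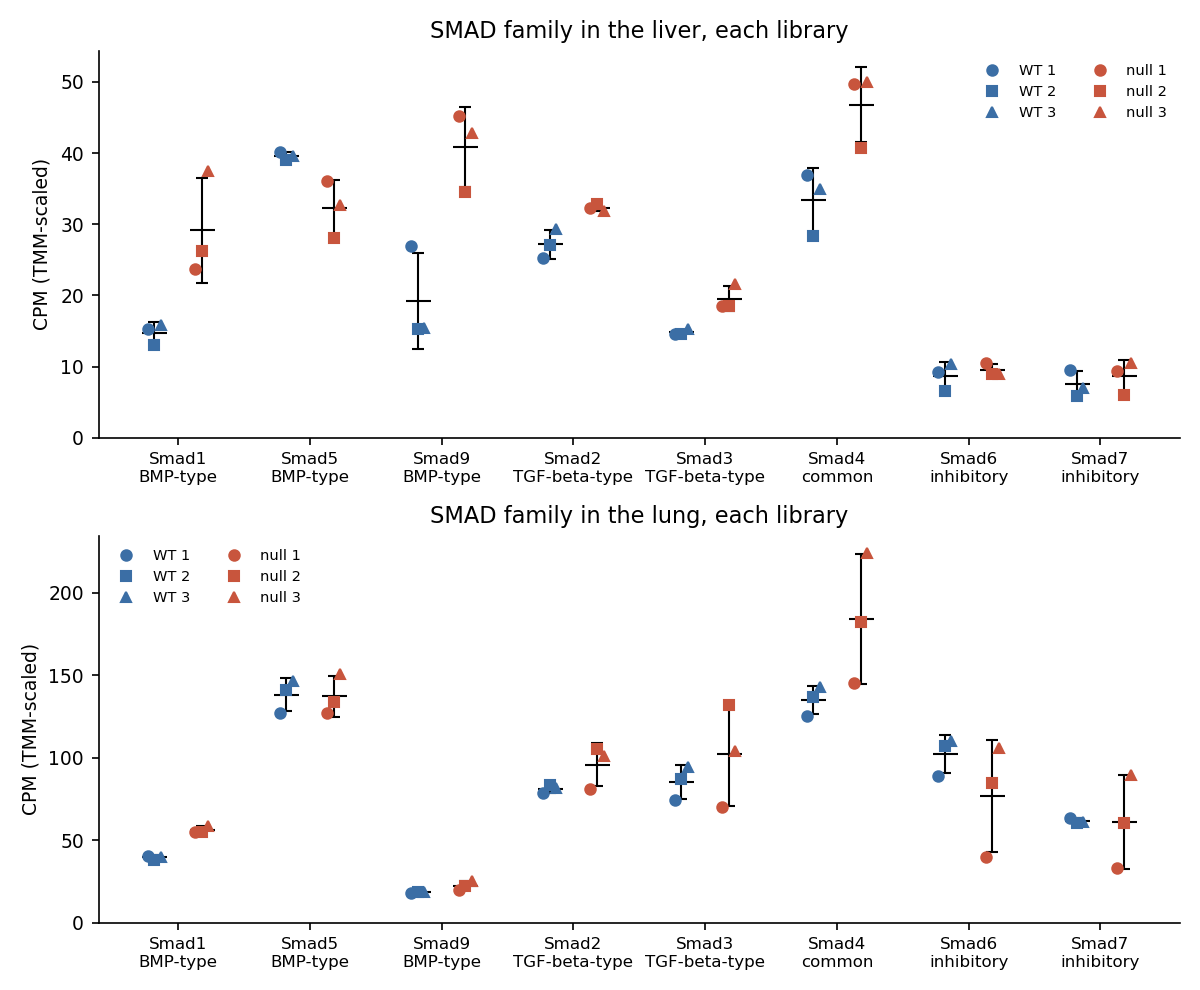
TMM-scaled CPM (linear axes from 0) of the 8 SMAD genes in each WT (blue) and null (red) library of the liver, top, and the lung, bottom; black marks and bars are the mean and SD of 3 libraries. In the liver, Smad1, Smad9, Smad2, Smad3 and Smad4 are higher and Smad5 is lower in null without overlap, and in the lung the null libraries spread widely for Smad4, Smad6 and Smad7.

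Among the BMP-type SMADs, Smad1 was at 15.3, 13.0 and 15.9 CPM in WT liver 1 to 3 and at 23.7, 26.2 and 37.5 CPM in null liver 1 to 3. Smad1 (ENSMUSG00000031681.16, GRCm38 chr8:79338395-79399518, minus strand) transmits BMP signals in most tissues, and all null livers lay above all WT livers. It rose 1.98-fold in null liver (log2 fold change 0.98, SE 0.19, adjusted p = 0.00953). Smad9, the least widely expressed of the class, lies on chr3:54755582-54801257, 45.8 Mb from Man1a2 on the same chromosome. Its level was 27.0, 15.3 and 15.5 CPM in WT livers and 45.2, 34.5 and 42.9 CPM in null livers, again without overlap although WT liver 1 stood above the other 2 WT livers. Smad9 rose 2.12-fold (log2 fold change 1.09, SE 0.23, adjusted p = 0.0151), and its adjusted p was 0.0556 without WT liver 2 and 0.0631 without WT liver 3.

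Smad5 went the other way. It is closely related to Smad1, lies on chr13:56703010-56742377 and shares 100 exon bases with the small RNA gene Gm27301 on the same strand. Smad5 was at 40.2, 39.0 and 39.6 CPM in WT livers and at 36.0, 28.1 and 32.7 CPM in null livers. The 3 WT livers were almost equal and all 3 null livers lay below them, but the difference was not called (log2 fold change -0.29, SE 0.11, adjusted p = 0.0815). With upper-quartile scaling in place of TMM it passed the threshold (log2 fold change -0.40, adjusted p = 0.0284).

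The make-up of the class therefore differed between genotypes in the liver when levels were expressed per kilobase of exon. This scale is meant for setting genes against one another. It divides by the length of all annotated exons of a gene, which may differ from the length counted, as the counting annotation is not given. Smad5 made up 42.0, 51.7 and 49.6% of the BMP-type signal in WT liver 1 to 3 and 28.5, 26.3 and 24.0% in null liver 1 to 3. Smad9 made up 39.0, 27.9 and 26.8% in WT livers and 49.3, 44.6 and 43.4% in null livers. Smad5 was the most abundant BMP-type transcript in every WT liver and Smad9 in every null liver. The summed level of the class was 13.6 to 16.6 CPM per kb in WT livers and 18.9 to 23.9 CPM per kb in null livers. These shares sum genes whose changes are given above and were not tested on their own.

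**Figure D3:**
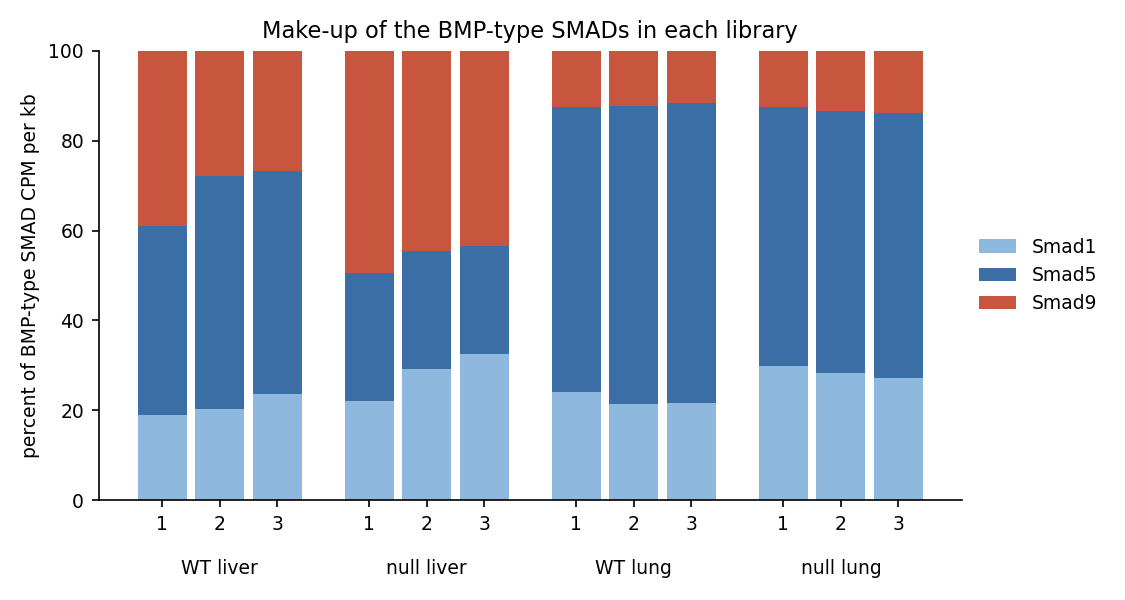
Stacked bars show, for each library (1 to 3 in each group), the percent of the summed BMP-type CPM per kb that came from Smad1, Smad5 and Smad9. Smad9 takes 26.8 to 39.0% in WT liver, 43.4 to 49.3% in null liver and 11.6 to 13.8% in the lungs of both genotypes.

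Of the TGF-beta-type SMADs, Smad3 (chr9:63646767-63757994, minus strand), which binds DNA directly, was at 14.6, 14.6 and 15.3 CPM in WT livers and at 18.5, 18.5 and 21.6 CPM in null livers. The groups were tight and did not overlap, and Smad3 rose 1.32-fold (log2 fold change 0.40, SE 0.11, adjusted p = 0.0335). This call was lost in 5 of 6 fits with 1 library left out, all except the one without null liver 1, with adjusted p from 0.0442 to 0.104 over the 6. Smad2 (chr18:76241580-76310963), whose main form needs a partner to bind DNA, was at 25.3, 27.1 and 29.3 CPM in WT livers and at 32.2, 32.8 and 31.9 CPM in null livers. It was higher in all null livers but was not called (log2 fold change 0.25, SE 0.09, adjusted p = 0.0795). Smad3 accounted for 45.2 to 47.8% of the summed TGF-beta-type CPM per kb in WT livers and 47.2 to 51.7% in null livers, ranges that overlap.

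Smad4 (chr18:73639009-73703780, minus strand), the partner shared by both branches, was at 36.9, 28.4 and 34.9 CPM in WT livers and at 49.7, 40.7 and 49.99 CPM in null livers. It rose 1.40-fold (log2 fold change 0.49, SE 0.13, adjusted p = 0.0328), and this call was kept in 1 of 6 fits with a library left out, the one without null liver 2, the other 5 giving adjusted p from 0.0522 to 0.0854. Its share of all SMAD signal per kb was 28.4 to 30.3% in WT livers and 30.0 to 31.3% in null livers, so its own level moved while its share overlapped.

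The inhibitory SMADs overlapped between genotypes in the liver. Smad6 (chr9:63953076-64022059, minus strand), which mainly restrains BMP signaling, was at 9.30, 6.56 and 10.3 CPM in WT livers and at 10.5, 8.97 and 9.04 CPM in null livers (log2 fold change 0.12, 95% interval -0.32 to 0.57, adjusted p = 0.664). Smad7 (chr18:75367529-75395935), which restrains both branches by recruiting ubiquitin ligases to the receptors, was at 9.58, 5.94 and 7.05 CPM in WT livers and at 9.39, 6.06 and 10.5 CPM in null livers (log2 fold change 0.20, 95% interval -0.40 to 0.80, adjusted p = 0.592). Both intervals include 0, and they also include changes as large as those of Smad3 and Smad4. The ratio of inhibitory to receptor-regulated SMAD signal per kb was 0.273, 0.212 and 0.284 in WT livers and 0.222, 0.193 and 0.198 in null livers, with WT liver 2 inside the null range. In whole tissue, fewer cells of a type and less RNA per cell cannot be told apart. The 8 hepatocyte markers summed to 154104 to 212585 CPM in WT and 177221 to 250403 CPM in null livers, with 0 of 8 called by edgeR. The 8 endothelial markers summed to 358 to 370 CPM and 375 to 397 CPM, a sum that hides members called in opposite directions, Pecam1 (log2 fold change 0.52) and Cdh5 (0.49) higher and Erg (-0.93, adjusted p = 0.00464) lower. Over 9 marker lists with all livers kept, 11 of 57 genes tested in the liver were called, 5 higher and 6 lower, beside 26.9% of all genes. Besides the endothelial genes these were the fibroblast and stellate cell genes Lrat (-1.15), Tcf21 (-1.06), Pdgfrb (-0.39) and Reln (0.62), the macrophage gene Adgre1 (0.54), the neutrophil gene Mpo (0.59), the erythroid gene Klf1 (-0.88) and the lung surfactant gene Sftpa1 (-1.87). Sftpa1 was highest in WT liver 2, at 8.34 CPM, the liver with the most lung epithelial marker RNA. The part of these marker genes in the SMAD differences was not tested.

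In the lung, 0 of the 8 SMAD genes were called with edgeR, 1 had an unadjusted p under 0.05, and DESeq2 called 1, in both cases Smad1. Few genes were called at all in this comparison, 0.327% of 15591 (0.0898% higher), although 25.0% had an unadjusted p under 0.05. Without null lung 1, the same test called 4 of the 8, all higher in null mice, and 37.0% of the genes tested, 18.0% higher and 19.0% lower. The 4 were Smad1, Smad2, Smad3 and Smad4, and with DESeq2 on the same 5 libraries there were 5, Smad9 being added. No SMAD gene was called by edgeR when any other single lung library was left out. With all 6 lungs, null and WT did not overlap for 3 of 8 members, against 36.1% of all genes, and without null lung 1 for 5 of 8, all higher, against 61.8%.

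Smad1 was at 40.6, 38.2 and 39.9 CPM in WT lung 1 to 3 and at 55.2, 54.9 and 58.7 CPM in null lung 1 to 3. Null lung 1 lay near the other null lungs for this gene, although most of its lung markers went against its label. The groups did not overlap (log2 fold change 0.51, SE 0.11, adjusted p = 0.0809). The Smad1 fold change was nearly the same without null lung 1 and the call was made (log2 fold change 0.52, SE 0.10, adjusted p = 0.00682). Smad9 was at 18.2, 18.7 and 18.4 CPM in WT lungs and at 19.9, 22.1 and 25.5 CPM in null lungs. It lay higher in each null lung but was not called with or without null lung 1 (log2 fold change 0.29, adjusted p = 0.294, and 0.37, adjusted p = 0.0527). Smad5 was at 127, 141 and 146 CPM in WT lungs and at 127, 134 and 151 CPM in null lungs, with overlap (log2 fold change -0.01, 95% interval -0.34 to 0.32), and its log2 fold change without null lung 1 was 0.04 (adjusted p = 0.789).

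Smad4 was at 125, 137 and 143 CPM in WT lungs and at 145, 182 and 224 CPM in null lungs, with null lung 1 the lowest null value and still above every WT lung. Its log2 fold change was 0.45 (SE 0.19, adjusted p = 0.210) with all lungs and 0.59 (SE 0.12, adjusted p = 0.00843) without null lung 1. Smad2 was at 78.7, 83.2 and 81.5 CPM in WT lungs and at 81.0, 105 and 101 CPM in null lungs. Only null lung 1 fell inside the WT range, and the log2 fold change was 0.24 (adjusted p = 0.332) with it and 0.35 (SE 0.09, adjusted p = 0.0212) without it. Smad3 was at 74.1, 87.2 and 94.5 CPM in WT lungs and at 70.0, 132 and 104 CPM in null lungs, where null lung 1 was the lowest of all 6. The log2 fold change of Smad3 was 0.26 (adjusted p = 0.545) with null lung 1 and 0.47 (SE 0.14, adjusted p = 0.0372) without it.

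The inhibitory SMADs had the widest spread among null lungs. Smad6 was at 89.2, 107 and 110 CPM in WT lungs and at 39.8, 84.9 and 106 CPM in null lungs, and Smad7 at 63.5, 60.4 and 60.9 CPM in WT lungs and at 33.0, 60.6 and 89.8 CPM in null lungs. Null lung 1 was lowest for both. Neither was called with it (Smad6 log2 fold change -0.41, adjusted p = 0.491, and Smad7 -0.01, adjusted p = 0.987) or without it (Smad6 -0.10, adjusted p = 0.603, and Smad7 0.29, adjusted p = 0.196), and Smad7 turned direction. In null lung 1 the 8 endothelial markers summed to 779 CPM, against 1721 to 2524 CPM in the other lungs, and the 8 fibroblast and stellate cell markers to 2312 CPM against 535 to 672 CPM. The part of these cell types in the levels of Smad6 and Smad7 was not tested. The ratio of inhibitory to receptor-regulated SMAD signal per kb was 0.849, 0.869 and 0.856 in WT lungs and 0.383, 0.598 and 0.816 in null lungs, below the WT range in all 3 null lungs, null lung 2 and 3 included. Smad4 made up 26.8 to 27.0% of all SMAD signal per kb in WT lungs and 31.6 to 35.5% in null lungs. Both quantities are descriptions of 3 libraries a group and carry no test.

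**Figure D4:**
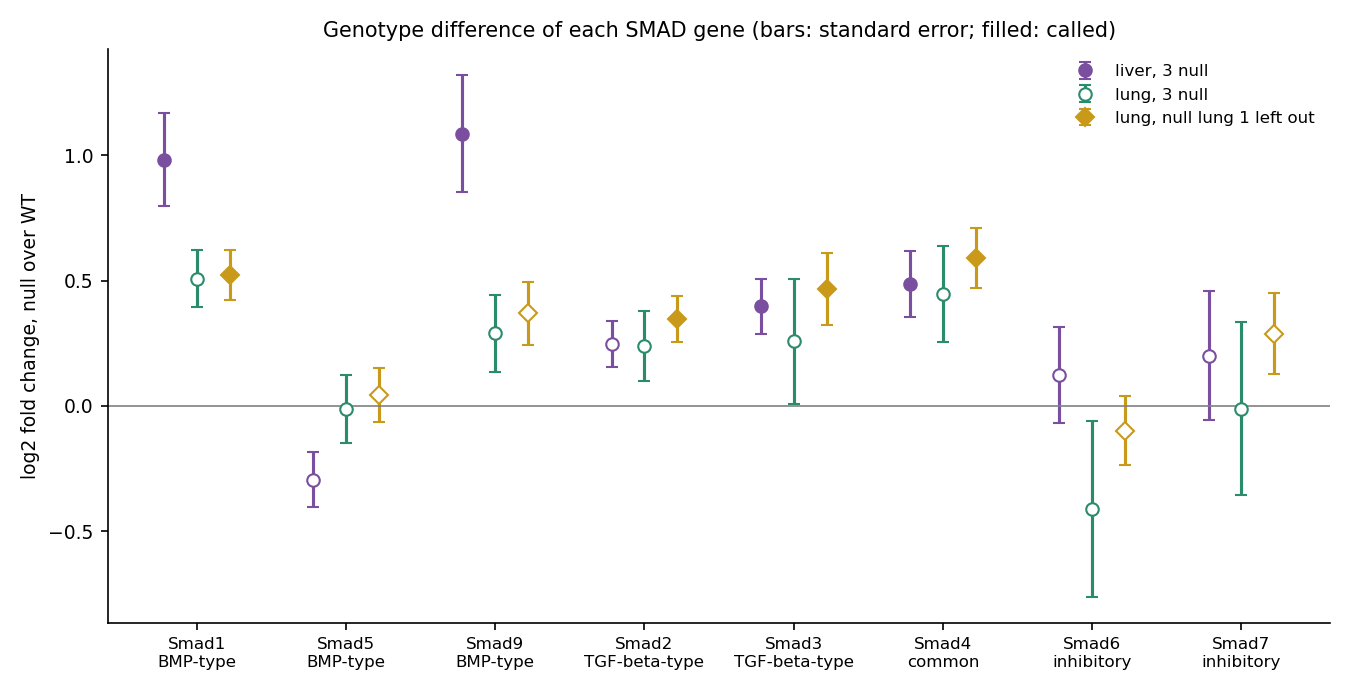
Log2 fold change (null over WT) of each SMAD gene in the liver (purple), in the lung with all 3 null libraries (green) and in the lung with null lung 1 left out (yellow); bars are the standard error of the edgeR fit, and filled symbols are called. Smad1 and Smad9 reach 0.98 and 1.09 in the liver, Smad5 is at -0.29 there, and the lung estimates of Smad2, Smad3 and Smad4 are larger without null lung 1.

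Whether the genotype difference itself differed between tissues was tested as an interaction over all 12 libraries. Liver and lung libraries with the same number were not paired in this test. None of the 8 SMAD genes was called (0 of 8 with edgeR, 1 at an unadjusted p under 0.05, 0 of 8 with DESeq2), beside 0.371% of 16155 genes called and 13.9% at an unadjusted p under 0.05. Smad9 had the largest estimate, -0.81 on the log2 scale for lung minus liver (SE 0.30, 95% interval -1.46 to -0.15, unadjusted p = 0.0209, adjusted p = 0.271). Smad1 followed at -0.48 (SE 0.22, adjusted p = 0.366). A larger rise in liver than in lung was thus not shown for either gene. With null liver 1 and null lung 1 both left out, the count was again 0 of 8, with Smad9 at -0.64 (adjusted p = 0.267) and Smad5 at 0.43 (adjusted p = 0.147).

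Between the tissues of WT mice, all 8 SMAD genes were called, 7 higher in lung and Smad9 higher in liver, and 77.0% of 15635 genes were called, 39.8% higher and 37.2% lower in lung. The tissues did not overlap for any of the 8, nor for 81.3% of all genes. Smad6 was at 21.3, 25.4 and 26.1 CPM per kb in WT lungs and at 3.74, 2.73 and 4.21 CPM per kb in WT livers. This was the widest tissue difference of the family (6.73-fold, log2 fold change 2.75, SE 0.16, adjusted p = 3.37e-07). Smad7 was at 10.8, 10.2 and 10.2 CPM per kb in WT lungs and at 2.73, 1.75 and 2.04 CPM per kb in WT livers (4.72-fold, log2 fold change 2.24, SE 0.15, adjusted p = 8.61e-07). Smad3 was 3.31-fold and Smad4 2.33-fold higher in lung, Smad5 2.01-fold, Smad2 1.72-fold and Smad1 1.55-fold. Smad9 alone had the opposite direction, with 2.59, 2.65 and 2.61 CPM per kb in WT lungs and 6.48, 3.79 and 3.77 CPM per kb in WT livers (log2 fold change -0.85, SE 0.20, adjusted p = 0.00356). Liver and lung libraries with the same number were not paired in this test. All 8 calls and directions held in each of the alternatives tried, the replicate block included.

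The order of the members per kilobase differed by tissue. In WT liver, Smad4 was highest with a mean of 11.8 CPM per kb and Smad5 followed with 6.99, each apart from all other members. Smad9, Smad2, Smad6 and Smad3, with means of 4.68, 4.06, 3.56 and 3.51, each overlapped their neighbor in that order, then came Smad1 at 3.08 and Smad7 lowest at 2.17. In null liver Smad4 led with 16.6, Smad9 was second with 9.99, apart from both neighbors, and Smad1 and Smad5 followed with overlapping ranges and means of 6.10 and 5.72. In WT lung, Smad4 (27.7) and Smad6 (24.3) were the most abundant and overlapped at 25.9 to 26.1 CPM per kb, and Smad1 (4.82) and Smad9 (2.62) were the least abundant.

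The genes whose levels followed each member most closely over the 12 libraries were ranked by the root mean square difference of centered log2 CPM, among 13403 other genes tested in both tissues. Smad2 was followed most closely, by Rac1 at 0.082 and Taok1 at 0.0994. Smad6 was nearest to Slc44a2 (0.172) and Jup (0.179), and Smad7 to Heg1 (0.17) and Itpr3 (0.173). Smad1 was nearest to Map3k8 (0.155) and Rbsn (0.161), Smad5 to Fam8a1 (0.13) and Arfip1 (0.142), Smad3 to Mprip (0.132) and Nfat5 (0.137), and Smad4 to Znrf1 (0.121) and Fbxo11 (0.129). Smad9 had the most distant closest genes, Rbm15 at 0.24 and Fam65b at 0.241. Within the family, Smad2 and Smad4 were nearest to each other (0.279), as were Smad6 and Smad7 (0.308), while the member nearest to Smad9 was Smad1 at 0.843. All these points share the libraries and the gap between tissues, so the distances are descriptions.

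Genes that act with the SMADs were taken as 5 lists, 83 distinct genes in all. In the liver 26 of the 76 tested were called (34.2%), beside 26.9% of all genes. Of these 23 rose and 3 fell, and the median log2 fold change of the 76 was 0.36 against 0.02 over all genes. Without null liver 1 the count was 19 (25.0%, beside 23.8% of all genes), and it was 14, 8 and 7 without WT liver 1, 2 and 3. Calls over all genes fell as well, from 3856 with all livers to 1641 without WT liver 3. The list with the largest share was that of nuclear and membrane partners, with 12 of 20 called, 11 higher and 1 lower, and 11 of 20 without null liver 1, where Runx2 was lost. Crebbp, a histone acetyltransferase that SMADs recruit, was at 15.4, 13.3 and 14.6 CPM in WT livers and at 28.0, 26.6 and 32.7 CPM in null livers. It rose 2.01-fold without overlap (log2 fold change 1.01, SE 0.12, adjusted p = 0.00292). Its relative Ep300 rose by a log2 fold change of 0.55. Of the corepressors on the list, Tgif1 (0.79), Tgif2 (0.60) and Skil (0.81) rose, while Ski (-0.23), Zeb1 (0.25) and Zeb2 (-0.24) were not called. Other partners that rose were Trim33 (0.39), Runx1 (0.67) and Runx2 (0.91), the SMAD-binding Erbin, listed as Erbb2ip (0.55), and the nuclear envelope protein Lemd3 (0.68), which restrains receptor-regulated SMADs. Bambi, a decoy receptor without a kinase, rose 2.40-fold (log2 fold change 1.26, SE 0.31, adjusted p = 0.0223), with null liver 3 at 24.3 CPM well above null liver 1 and 2 at 12.7 and 11.5 CPM. Zfyve16, an endosomal adaptor, fell by 0.73 on the log2 scale (adjusted p = 0.0338).

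Among the regulators of SMAD turnover and dephosphorylation, 7 of 21 (33.3%, beside 26.9% of all genes) were called in the liver, all higher, and 5 without null liver 1, where Smurf1 and Usp9x were lost. This group held the ubiquitin ligases Nedd4l (log2 fold change 0.97, adjusted p = 0.0294) and Smurf1 (0.47) and the deubiquitinases Usp9x (0.39) and Usp11 (0.67). It also held the phosphatase genes Pdp1 (0.99, adjusted p = 0.00894) and Ctdsp2 (0.69), and the phosphatase subunit gene Ppp1r15a (0.90, adjusted p = 0.0184). These members include both genes that remove SMADs and genes that preserve them. Of 11 receptor genes tested, 2 were called (18.2%, beside 26.9% of all genes), and 0 by edgeR without null liver 1, where 4 had an unadjusted p under 0.05. Tgfbr2, the type II receptor for TGF-beta, rose 1.34-fold (log2 fold change 0.42, SE 0.12, adjusted p = 0.0339). Acvr1, a type I receptor for BMPs and activins, was at 14.5, 17.8 and 17.2 CPM in WT livers and at 11.8, 12.1 and 12.7 CPM in null livers and fell by 0.44 on the log2 scale (SE 0.12, adjusted p = 0.0339).

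BMP-responsive genes did not move one way in the liver. Of 11 tested, 4 were called (36.4%, beside 26.9% of all genes), and 1, Bambi, without null liver 1. With all livers these were Bambi, Runx2 and Id4 (log2 fold change 0.71, adjusted p = 0.0363) higher and Id2 lower. Id2, a classical BMP target that blocks bHLH transcription factors, was at 87.2, 94.9 and 97.2 CPM in WT livers and at 67.3, 61.6 and 76.4 CPM in null livers. It fell by 0.44 on the log2 scale (SE 0.11, adjusted p = 0.0266). Id1, Id3 and Hamp, named here after their values were seen because they are the usual readouts of hepatic BMP signaling, had log2 fold changes of 0.06, -0.25 and -0.22 and were not called. Hamp, which encodes hepcidin, was at 245 ± 91.2 CPM in WT livers and 210 ± 224 CPM in null livers (SD, n = 3).

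Of 17 TGF-beta-responsive genes tested in the liver, 4 were called (23.5%, beside 26.9% of all genes), all higher, and the count was again 4 without null liver 1. Ctgf, a matrix-associated growth factor, was at 15.1, 14.0 and 18.3 CPM in WT livers and at 78.2, 36.6 and 41.3 CPM in null livers (log2 fold change 1.72, SE 0.29, adjusted p = 0.00675). The cell cycle inhibitor Cdkn1a was at 84.8, 51.5 and 68.3 CPM in WT livers and at 138, 167 and 211 CPM in null livers (log2 fold change 1.33, SE 0.22, adjusted p = 0.00661). Fn1, which encodes fibronectin, rose 1.90-fold (adjusted p = 0.0224), and Skil was the fourth. The collagen genes Col1a1, Col1a2 and Col3a1 had positive log2 fold changes of 1.68, 1.44 and 1.08 and were not called. Their SDs among the 3 null livers were as large as their means or nearly so. Col1a1 was at 453 CPM in null liver 1 and at 79.5 and 85.8 CPM in null liver 2 and 3. Without null liver 1 the log2 fold changes of the 3 collagen genes were 0.36, 0.03 and -0.07, again not called. Null liver 1 held the highest summed fibroblast and stellate markers of the livers, 1035 CPM against 486 to 657 CPM, and the highest Ctgf. Des, which muscle also expresses, supplied 453 of these 1035 CPM. Without Des null liver 1 was at 582 CPM, within the 473 to 644 CPM of the other livers. Of the 7 genes left in this sum, Lum (87.9 CPM) and Pdgfra (39.7 CPM) were highest in null liver 1 and Lrat (7.62 CPM) was lowest there. The rest lay within the range of the other livers. The log2 fold change of Ctgf without null liver 1 was 1.30 (adjusted p = 0.00246). The part of these cells in the TGF-beta-responsive genes was not tested.

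**Figure D5:**
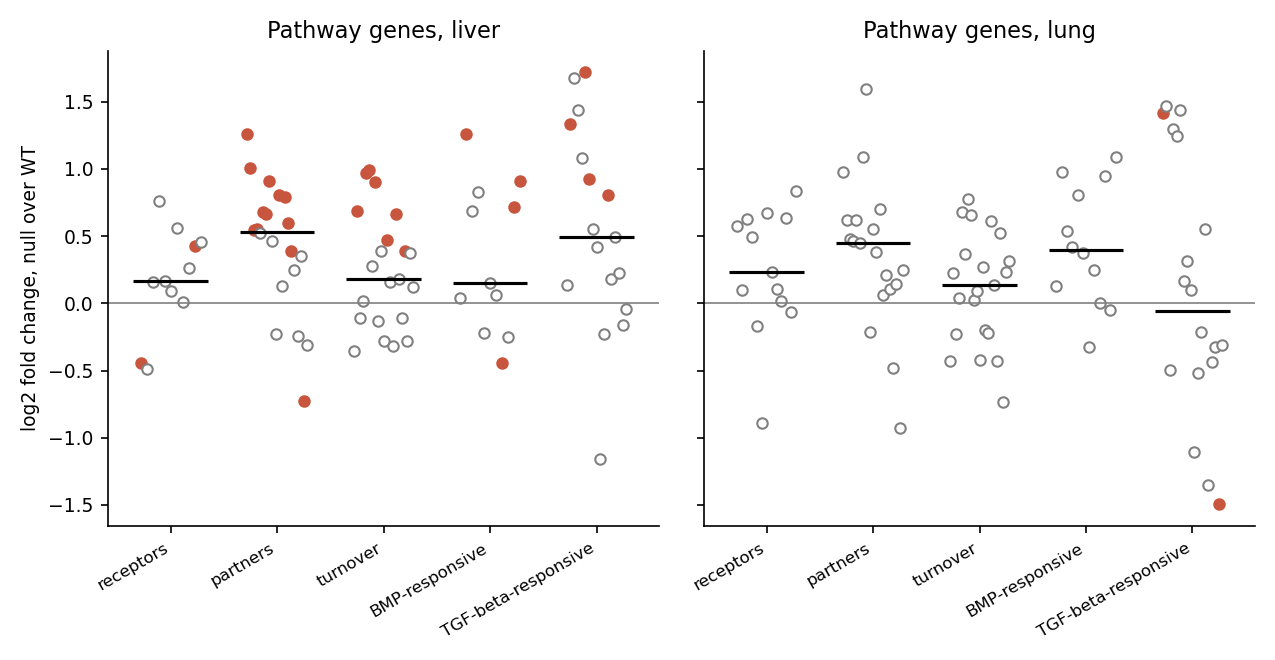
Log2 fold change (null over WT) of the tested genes of 5 SMAD pathway lists in the liver, left, and in the lung with all 6 libraries, right; filled red points are called and black lines are list medians. In the liver 12 of 20 partners are filled, 11 of them above 0, and in the lung 2 genes are filled.

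In the lung, 2 of 79 pathway genes tested were called (2.53%, beside 0.327% of all genes), both TGF-beta-responsive. Bhlhe40, a transcriptional repressor, was at 28.5, 34.6 and 29.5 CPM in WT lungs and at 72.9, 92.7 and 81.0 CPM in null lungs (log2 fold change 1.41, SE 0.15, adjusted p = 0.049972). Tgfbi, a secreted matrix protein named for its induction by TGF-beta, was at 520, 616 and 504 CPM in WT lungs and at 172, 202 and 207 CPM in null lungs (log2 fold change -1.50, SE 0.17, adjusted p = 0.049972). Null lung 1 lay near the other null lungs for both genes, and the groups were far apart. Most lung markers of null lung 1 went against its label, and the part of its tissue content in these values was not tested. Their shared adjusted p lies just under the threshold, and neither gene was called when any single library other than null lung 1 was left out. Without null lung 1 their log2 fold changes were 1.49 (adjusted p = 0.000592) and -1.42 (adjusted p = 0.000621). With all lungs, the other 4 lists had 0 called genes by edgeR, while DESeq2 called 14 genes over the 5 lists and 2355 genes in all. In these 4 lists, 3 of 13 receptors, 6 of 19 partners, 6 of 21 turnover genes and 3 of 12 BMP-responsive genes had an unadjusted p under 0.05 by edgeR. The share over all genes was 25.0%. In these lists the smallest p-values belonged to Acvr1 (log2 fold change 0.58, adjusted p = 0.0956), Bmpr1a (0.67, adjusted p = 0.135), Zfyve16 (-0.92, adjusted p = 0.0713), Tgif1 (0.70, adjusted p = 0.0803), Ppm1a (0.77, adjusted p = 0.0804), Wwp1 (-0.74, adjusted p = 0.0809), Runx2 (1.09, adjusted p = 0.130) and Bambi (0.98, adjusted p = 0.190). Without null lung 1, 40 of the 79 were called (50.6%), 29 higher and 11 lower, against 37.0% of all genes. The 8 genes just named were all among them, in the same directions, from Zfyve16 at -0.93 to Bambi at 1.33. The partners again had the largest share, 13 of 19, of which 12 were higher in null.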

How the data were processed

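Newborn mouse liver and lung were profiled with stranded, poly-A selected libraries sequenced as 75 bp pairs. Per the labels, the submitters' processing notes name FastQC, STAR 2.5.2a, DESeq2 and the mm10 build, and the counting program, annotation and strand setting are not given in the sources used here. The authors deposited raw counts per gene symbol, 1 column a library and not normalized, with 0 other columns of per-sample values and 0 rows that name no gene. Reads shared by related genes may have been split in counting.

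Counts were fitted with edgeR 4.0.16 (filterByExpr, TMM factors, glmQLFit, glmQLFTest) in R 4.3.3, each tissue apart, with Benjamini-Hochberg adjustment over all genes tested. The cut-off of 1.2-fold and adjusted p under 0.05 is that of the study's methods. SEs are the log2 fold change over the root of F. DESeq2 1.42.0, other scaling, other count filters, a replicate block, a fit of all 12 libraries and leaving out each library were alternatives. The fits were tested on simulated data. P-values set each difference against the spread between these samples. No 2 libraries were copies of each other. CPM were scaled by TMM within the libraries of a comparison, and CPM per kb and marker sums over all 12. Exon lengths and positions came from GENCODE M21 (GRCm38, the build of mm10), which covered 98.3% of genes. Tables and figures were made with Python, pandas and matplotlib.

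Text names the 8 SMAD genes and Man1a2, up to 3 called genes with the largest rise and 3 with the largest fall per list and tissue (with 0 called, the 2 with the smallest p), and the 2 genes nearest to each member. Other called partners and regulators are named to account for their lists. The members and lists were chosen with earlier results of these data known. Liver and lung libraries with the same number deviated together in every pair (correlations 0.143 to 0.2 in WT and 0.36 to 0.447 in null), so the number pairs the tissues. With that number as a block the interaction test called 0 genes in place of 60, and again 0 SMAD genes.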

Additional observations from a re-analysis of the deposited data

Results flagged for a closer look

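Acvr1, the type I receptor gene for BMPs and activins, and Zfyve9, an endosomal adaptor that presents SMADs to the receptor, lay on opposite sides of WT in the 2 tissues. For both genes every null liver lay below every WT liver and every null lung above every WT lung. This counts null lung 1, most of whose lung markers went against its label. For Zfyve9 in the liver the groups all but touched, with null liver 1 at 9.529 CPM and WT liver 3 at 9.534 CPM. The 2 genes were picked for opposite directions without overlap, so this pattern is no test. In either direction, groups did not overlap for 46.6% of all genes in the liver and 36.1% in the lung. The share of all genes with opposite directions is not given here. The difference of the Acvr1 log2 fold changes, lung minus liver, was 1.02 (SE 0.185). The interaction test, which did not pair the tissues, gave an adjusted p of 0.0547 with edgeR, so the difference was not called. For Zfyve9 the difference was 0.554 (SE 0.194, adjusted p = 0.248), and the gene was called in neither tissue (log2 fold change -0.31 in liver and 0.25 in lung).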

How the results depend on the processing

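With all 12 libraries in 1 fit, the liver comparison called 2 SMAD genes, 11 pathway genes and 1921 genes in all. Leaving out 1 liver library gave 1 to 3 SMAD genes, 7 to 23 pathway genes and 1641 to 3451 of all genes. In the lung, DESeq2 called 1 SMAD gene, 14 pathway genes and 2355 genes in all, and the fit of all 12 libraries 14 pathway genes and 2284 in all. Pathway genes called in the lung fell to 0 with DESeq2 size factors, with a minimum of 1 count and without haemoglobin and the 20 most abundant genes, where all genes numbered 2, 0 and 5. Upper-quartile factors gave 109 and a minimum of 10 counts in every library 210 of all genes in the lung. Leaving out 1 lung library gave 0 to 4 SMAD genes, 0 to 40 pathway genes and 0 to 5881 of all genes, the upper values without null lung 1. DESeq2 with null lung 1 left out, a choice made after seeing the data, called 5, 46 and 6444. For the interaction, all genes called numbered 610 with DESeq2, 33 with a minimum of 1 count, 92 with a minimum of 10 counts, 0 to 813 with 1 library left out, and 840 with null liver 1 and null lung 1 both left out, also chosen after seeing the data. The cause of these moves was not tested.

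WT and null libraries with the same number shared only that number (correlations of their deviations -0.0323, -0.0308 and 0.128 in the liver and -0.0457, -0.0768 and 0.108 in the lung). With the replicate block, the liver comparison called 3 SMAD genes, 20 pathway genes and 3304 of all genes, Smad3 leaving the call at an adjusted p of 0.0543, the lung comparison called 0 SMAD genes, 0 pathway genes and 0 of all genes, and the interaction called 0 of all genes.

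Changes of direction occurred only in SMAD values that were not called. Smad6 in the liver ranged from -0.0461 to 0.26 with 1 library left out. In the lung, Smad5 was at 0.00789 with DESeq2 size factors and 0.0649 with DESeq2 and null lung 1 left out (range -0.0851 to 0.0419 with 1 library left out), and Smad7 at 0.00665 with DESeq2, 0.0107 with DESeq2 size factors and 0.31 with DESeq2 and null lung 1 left out (range -0.39 to 0.29). In the interaction, Smad2 was at 0.0114 with DESeq2, 0.0138 with its size factors, 0.0496 with upper-quartile factors, 0.00417 with a minimum of 10 counts and 0.10 without null liver 1 and null lung 1 (range -0.0786 to 0.12). Without those 2 libraries the interaction was 0.0368 for Smad3 (range -0.37 to 0.10), 0.15 for Smad4 (0.0149 with upper-quartile factors, range -0.18 to 0.13) and 0.16 for Smad7 (range -0.57 to 0.11). Of 496 single-gene values over the alternatives, 437 kept their direction and side of the threshold, 17 lost a call, 11 gained one and 31 changed direction. With 3 libraries a group, small changes of the inhibitory SMADs could not be resolved, as their 95% intervals show.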
